A study of Mus musculus with 4 samples.

Results

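Genes whose mouse symbol is Zfp followed by a number were followed in BV-2 cells, an immortalised mouse line derived from microglia, the macrophages of the brain, after exposure to lipopolysaccharide (LPS), a component of the bacterial outer membrane that Toll-like receptor 4 detects. The symbol rule gave 382 genes of the 23783 in the table, each represented by its RefSeq record with the most reads, and left out Zfp36 and its relatives, which bind RNA. The groups were untreated BV-2 cells, also labelled 4 h, with 2 libraries, and BV-2 cells exposed for 4 h to 10 ng/ml LPS, again with 2 libraries. The labels name no genotype change or second agent, and they do not say that replicates came from separate cultures, so each p-value reflects the spread of these particular libraries, some or all of which may be technical. BV-2 is an established line, so the data describe 1 cell source, although the growth protocol also mentions shaking of mixed glial cultures. Total counts ran from 2778686 to 3368693 per library, and from 902176 to 1425303 outside the 5 most abundant records. Il1b, an LPS-induced cytokine gene, had 2.81 and 5.06 normalised counts in the control libraries and 1990 and 2071 after LPS. Of 10 microglial and macrophage markers 9 had reads, with a sum of 2537 to 3028 normalised counts per library, while Itgam was at 0. All oligodendrocyte and fibroblast markers were at 0, and the astrocyte and neuron lists summed to at most 2.77. The endothelial list was 0 for Cldn5, Pecam1 and Tek but held Kdr at 362 to 459. These zeros, like that of Itgam, are not read as absence of the transcript.

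Most Zfp genes encode proteins with tandem C2H2 zinc fingers, small folds held by a zinc ion between a pair of cysteines and a pair of histidines, each of which contacts a short stretch of DNA. Many also carry a KRAB box near the amino terminus, which binds the corepressor TRIM28 (KAP1) and through it the H3K9 methyltransferase SETDB1 and HP1 proteins, a route by which endogenous retroviruses and imprinted loci are kept silent. Genes of this kind lie in tandem clusters that arose by duplication. Other Zfp genes have a few fingers and work as promoter factors, ubiquitin ligases or RNA-binding proteins.

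Of the 382 genes, 375 were protein coding, 4 transcribed pseudogenes and 3 long non-coding RNA genes. Translated GENCODE coding sequences were found for 374. A C2H2 finger pattern was matched a median of 10 times per protein and at most 33 times, in Zfp142, Zfp462 and Zfp619, and 16 proteins had no match. A KRAB pattern was matched in 165 proteins, with a median of 11 fingers, and not in 209, with a median of 8. The pattern missed some genes known to carry a KRAB box, Zfp445, Zfp568 and Zfp708 among them, so the 209 are called non-matching only. Chromosome 7 held 89 of the genes, chromosome 17 held 45 and chromosome 13 held 38. The KRAB pattern was matched in 39 of the 45 on chromosome 17, and in 33 and 16 on chromosomes 7 and 13.

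RefSeq promoter windows (GRCm38.p6) run from 250 bases before to 50 after a transcript start, which for Zfp719 and Zfp658 lies inside the span of the gene. The sequences below are the parts of such windows before the annotated gene start, for 3 genes on which the results turn. Zfp395, called lower after LPS, is not among them, because no window was found for it. Zfp719 was the 1 gene called higher after LPS, Zfp658 is its neighbour and had a similar fold that did not pass the test, and Zfp385a was called lower. They lie at chr7:43579336-43579558 (plus strand), chr7:43562120-43562201 (plus strand) and chr15:103340087-103340336 (minus strand). Capitals mark matches to the NRF1 motif (GCGCATGCGC), which was searched on both strands, as was an ETS-type motif (CGGAAGTG).
Zfp719: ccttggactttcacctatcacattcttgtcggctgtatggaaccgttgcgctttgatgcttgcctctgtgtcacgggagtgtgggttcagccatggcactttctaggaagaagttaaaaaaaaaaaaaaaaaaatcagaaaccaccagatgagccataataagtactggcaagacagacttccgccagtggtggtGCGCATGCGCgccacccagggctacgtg
Zfp658: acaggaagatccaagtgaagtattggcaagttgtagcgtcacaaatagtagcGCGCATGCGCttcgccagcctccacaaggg
Zfp385a: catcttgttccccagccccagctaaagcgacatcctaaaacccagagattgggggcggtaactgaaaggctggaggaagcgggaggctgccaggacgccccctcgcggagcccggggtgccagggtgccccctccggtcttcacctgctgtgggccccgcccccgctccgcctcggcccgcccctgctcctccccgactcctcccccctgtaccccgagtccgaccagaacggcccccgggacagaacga

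The NRF1 motif began 28 bases before the annotated start of Zfp719 and 30 before that of Zfp658. The ETS-type motif began 30 and 49 bases after those starts, past the stretches shown. The Zfp385a window held neither. The longest runs that the Zfp719 and Zfp658 windows shared were the 10 bases of the NRF1 motif and 9 bases beginning with the ETS-type one. These motifs were chosen after the windows were read. Over all RefSeq windows of this length the ETS-type motif was in 3.44% of 32851, against 11.1% of the 386 windows of Zfp genes, and the NRF1 motif was in 0.971% against 2.85%. Motifs of inducible factors were searched too. The kB motif was in 8.03% of the Zfp windows and 8.46% of all, the interferon-stimulated response element (GAAA, any 2 bases, GAAA) in 2.33% and 3.44%, the AP-1 motif (TGANTCA) in 3.37% and 7.81%, and the CRE (TGACGTCA) in 3.89% and 1.79%. None of these 4 occurred in the windows of the 3 genes. A median of 14 CG dinucleotides per window was found for Zfp genes and 7 for all. Windows were found for 316 of the 382 genes, some with several starts, and a match describes letters, not binding.

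The share of Zfp genes that could be measured differed with the number of RefSeq records of the gene. Of 382, 85 had no read in any library, 151 had reads but fell below the count filter, and 146 were tested. Among genes with 1 record 139 of 295 were tested (47.1%), and among those with 2 or more 7 of 87 (8.05%). Over the whole table these shares were 34.8% and 6.07%. The median count of the best record over the 4 libraries together was 35 for Zfp genes with 1 record and 0 for those with more. Why records of such genes hold few reads was not tested, and their zeros are not read as absence of the transcript. This group includes Zfp281, a promoter factor of pluripotent cells, with 0 reads over 2 records. It also includes Zfp410, known for activating Chd4, with at most 1 read per library in the best of its 5 records. Zfp384 and Zfp217 had at most 8 and 1 in their best records. Of 9 genes listed for retroelement silencing or imprinting, 1 was tested. Zfp57, which protects imprints, and Zfp568, which silences a placental Igf2 promoter, had 0 reads, with 4 and 3 records. Zfp809, a silencer of murine leukaemia proviruses, had 0 and 5 reads in controls and 4 and 5 after LPS in the best of its 3 records. Zinc finger genes resemble each other in sequence, and the sources used here do not say how reads that fit several copies were handled, so values of close copies are uncertain.

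The control libraries stood apart from each other over Zfp genes, and the gap varied with base composition. Control replicate 2 exceeded control replicate 1 by a median log2 ratio of 0.39 over the 146 tested Zfp genes, against -0.05 over 6924 tested records with a GC value. The ratio was highest for transcripts of low GC content. Among the third of Zfp genes with the lowest GC content, 35.4% to 41.4%, the median was 1.17 (n = 49), a 2.26-fold difference in normalised counts (counts scaled to a common library size), and among the third with the highest, above 50.4%, it was -0.37 (n = 49). All tested records in the same GC ranges had medians of 0.81 (n = 570) and -0.32 (n = 3287). Spearman's rho between GC content and this ratio was -0.785 across the Zfp genes and -0.661 across all records. For the LPS pair it was -0.46 and -0.265, with a median ratio of 0.08 over the Zfp genes. These correlations run across genes of the same libraries and are descriptions. The largest gaps, named after their values were seen, included Zfp930, with 14.1 and 83.6 normalised counts in the control libraries and 28.7 and 45.0 after LPS, and Zfp850, with 12.7 and 65.0 against 34.2 and 46.9. Zfp518a, among the Zfp transcripts of lowest GC content at 36.7%, had 53.4 and 143 against 76.7 and 98.8. In all 3 the LPS libraries fell between the controls, which a choice by wide control gaps favours. The same held in 50 of the 146 tested Zfp genes (34.2%), and the share over all records was not computed.

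**Figure D1:**
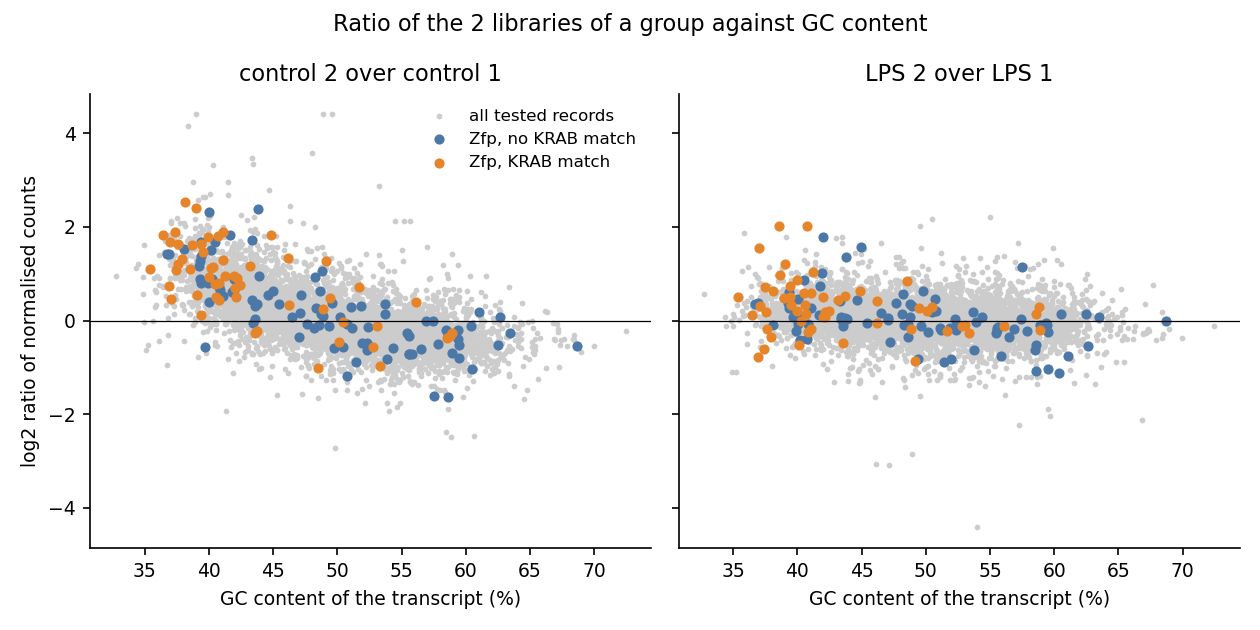
Log2 ratio of normalised counts between the libraries of a group (y axis; left, control 2 over control 1; right, LPS 2 over LPS 1) against the GC content of the transcript in percent (x axis). All tested records are grey, Zfp genes with a KRAB match orange and those without blue; the control ratio falls with GC content, with Spearman's rho of -0.785 across the Zfp genes.

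Few Zfp genes were called after LPS. Of 146 tested, edgeR's quasi-likelihood test with Benjamini-Hochberg adjustment at 0.05 called 1 higher and 2 lower, beside 3.82% of all 6981 tested records higher and 1.7% lower. The share of Zfp genes called in either direction was 3 of 146, against 5.53% of all records. Zfp719 rose, and Zfp385a and Zfp395 fell; DESeq2 and limma-voom called the same 3 genes, beside 2.91% and 3.68% of all records higher and 0.945% and 1.5% lower. In bulk RNA, fewer cells with a transcript and less of it per cell cannot be told apart. At an unadjusted p below 0.05, 6 Zfp genes were higher and 6 lower, where 7.92% and 7.49% of all records were. The log2 fold change lay within 0.5 either way for 69.9% of tested Zfp genes and 76.2% of all records. The LPS libraries were both above the controls in 20 genes and both below in 26, where 21.4% and 21.9% of all records did so, and the groups overlapped in 100.

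Zfp719, a KRAB gene with 13 matched fingers (NM_172482, chromosome 7, 43579559 to 43593710), had 26.7 and 45.6 normalised counts in the controls and 86.9 and 101 after LPS. Both LPS libraries were above both controls, and the controls differed from each other. It rose by 1.32 on the log2 scale (SE 0.292, adjusted p 0.0207 in edgeR), from 36.1 ± 13.3 to 93.8 ± 9.77 (SD, n = 2 per group). Without LPS replicate 2 the adjusted p of Zfp719 was 0.132 and its log2 fold change 1.24.

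Zfp385a, which encodes an RNA-binding zinc finger protein and is a p53 target gene (NM_013866, chromosome 15, 103313895 to 103340086), had 77.4 and 54.0 normalised counts in the controls and 18.5 and 20.5 after LPS. The groups did not overlap. It fell by 1.72 on the log2 scale (SE 0.316, adjusted p 0.00711 in edgeR), from 65.7 ± 16.5 to 19.5 ± 1.45.

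Zfp395, whose human counterpart was described as a binder of the huntingtin gene promoter (NM_199029, chromosome 14, 65358676 to 65398930), had 29.5 and 19.4 normalised counts in the controls and 3.70 and 3.91 after LPS. These LPS values rest on 4 reads in each library. It fell by 2.60 on the log2 scale (SE 0.499, adjusted p 0.00923 in edgeR). Both genes were called under every alternative in which they were tested. Neither reached a mean of 50 normalised counts, and neither matched the KRAB pattern.

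**Figure D2:**
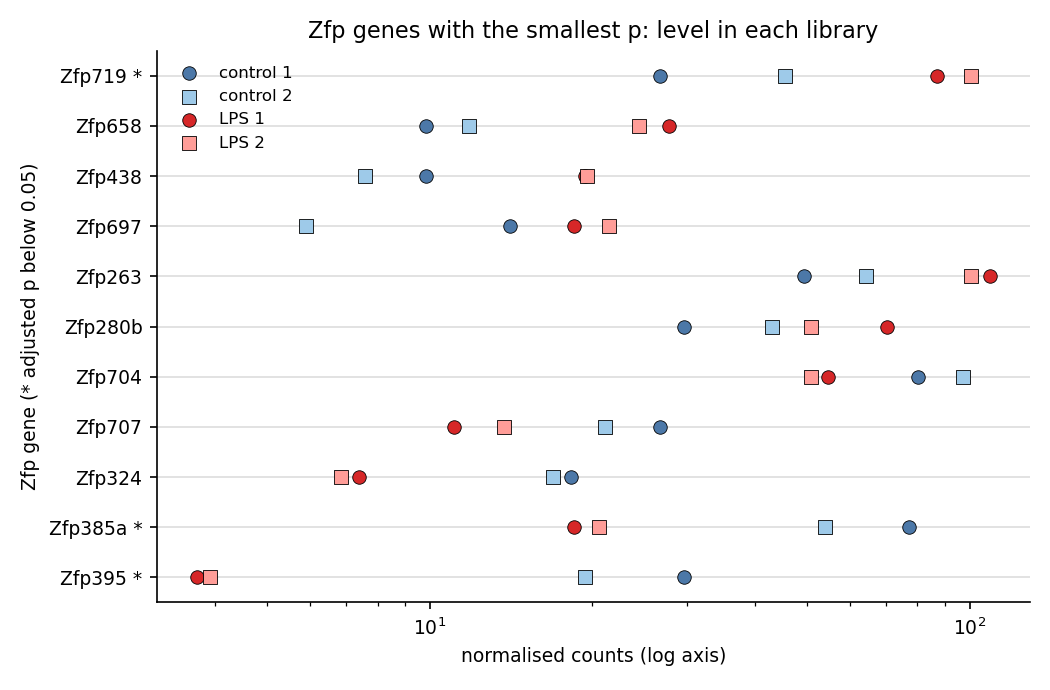
Normalised counts (x axis, log scale) of the 11 tested Zfp genes with the smallest p, 1 point per library, control libraries in blue and LPS libraries in red, with stars for genes past the threshold. Zfp719 sits at 86.9 and 101 after LPS against 26.7 and 45.6 in the controls, and Zfp395 at 3.70 and 3.91 against 29.5 and 19.4.

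**Figure D3:**
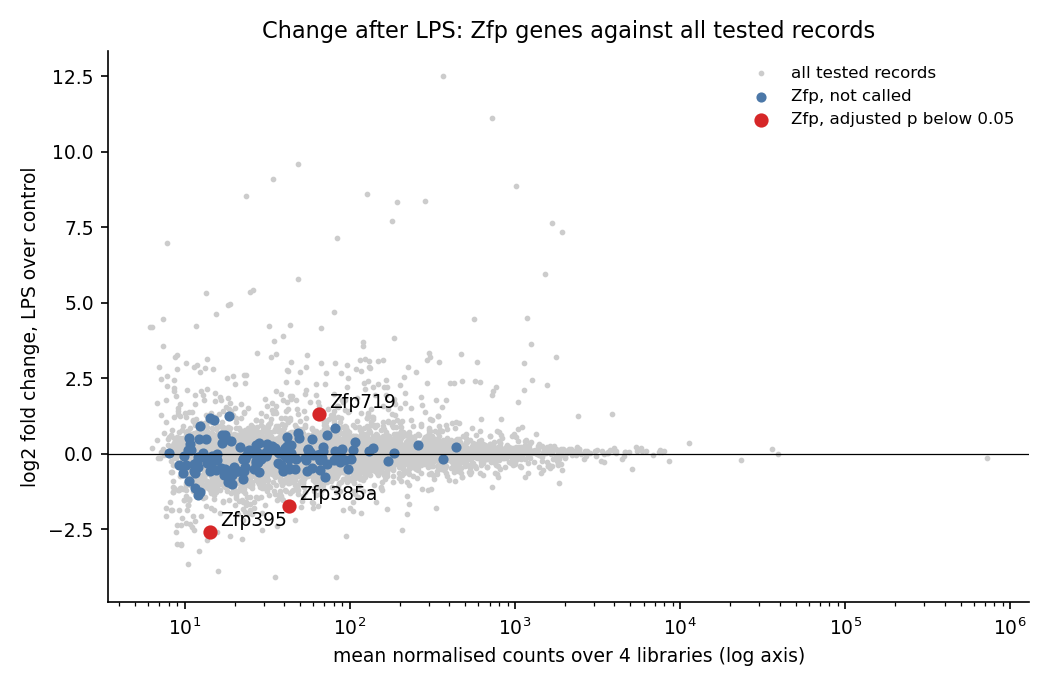
Log2 fold change after LPS (y axis) against mean normalised counts over the 4 libraries (x axis, log scale), with all tested records in grey, 146 Zfp genes in blue and the 3 that passed in red. Most Zfp genes lie near 0, and 69.9% of them are within 0.5.

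The genes next in order of p did not pass. Zfp263, a SCAN-type transcription factor, had 49.2 and 64.1 normalised counts in the controls and 109 and 101 after LPS (log2 fold change 0.87, SE 0.246, adjusted p 0.0751 in edgeR). Its groups did not overlap. With the trend on GC content and length removed its log2 fold change was 0.84 with an edgeR adjusted p of 0.0121. That fit called 11% of all records in either direction, against 5.53% without removal. In DESeq2 and limma-voom the adjusted p of Zfp263 was 0.287 and 0.0759. Zfp704, which encodes a protein with 1 matched finger, had 80.2 and 97.1 in the controls and 54.5 and 50.9 after LPS (log2 fold change -0.76 with an adjusted p of 0.129). Zfp324 had 18.3 and 16.9 against 7.40 and 6.85, Zfp707 26.7 and 21.1 against 11.1 and 13.7. Zfp438 had 9.85 and 7.60 in the controls and 19.4 and 19.6 after LPS, and Zfp697 14.1 and 5.91 against 18.5 and 21.5. Zfp280b had 29.5 and 43.0 against 70.3 and 50.9. In each of these 5, taken for their small p, the groups did not overlap, as in 43.4% of all 6981 tested records. Their adjusted p in edgeR ran from 0.156 for Zfp324 to 0.29 for Zfp280b.

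Zfp658, a KRAB gene with 21 matched fingers (NM_001008549, chromosome 7, 43562202 to 43576142), had 9.85 and 11.8 normalised counts in the controls and 27.7 and 24.4 after LPS. Its log2 fold change was 1.24 (SE 0.378, adjusted p 0.103 in edgeR). Once the GC and length trend was removed it was 1.22 with an edgeR adjusted p of 0.0394. In DESeq2 and limma-voom the adjusted p of Zfp658 was 0.657 and 0.126. Zfp658 ends 3416 bases before Zfp719 begins. The 100000 bases on each side of Zfp719 were looked at after these values had been seen. They hold 10 genes, 3 of them tested. The third, Ctu1, whose protein thiolates transfer RNA (NM_145582, chromosome 7, 43671971 to 43678301), had 23.9 and 21.1 normalised counts in the controls and 66.6 and 51.8 after LPS, and rose by 1.41 on the log2 scale (SE 0.302, edgeR adjusted p 0.0181). Siglece, a myeloid sialic acid receptor gene between Zfp719 and Ctu1, had no read in the controls and 7 and 6 reads after LPS, below the filter. Its annotated span overlaps the start of Ctu1, and the strand setting of the counting is not given, so reads in the overlap cannot be told apart. Zfp819, the gene after Zfp719, had 0 reads in every library, and the remaining genes of the window had at most 3 reads in any library.

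**Figure D4:**
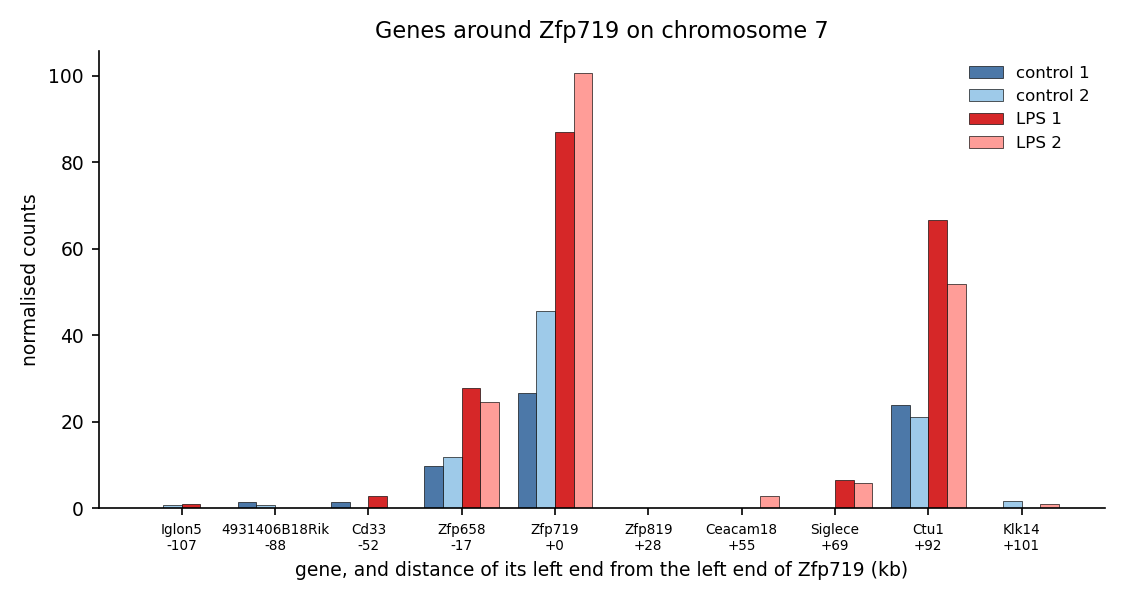
Normalised counts (y axis) of the 10 genes within 100000 bases of Zfp719, 4 bars per gene for the 4 libraries, ordered along chromosome 7 with the distance from Zfp719 in kilobases under each name. The LPS bars (red) stand above the control bars (blue) in Zfp658, Zfp719 and Ctu1, and most other genes are near 0.

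None of the 5 most abundant Zfp transcripts per length matched the KRAB pattern. On the scale of mean normalised counts per 1000 bases of transcript, Zfp330, a nucleolar protein gene, had 155, Zfp706 had 99.3, Zfp622, a factor of 60S ribosome maturation, had 49.0, Zfp830, linked to splicing, had 43.4 and Zfp64 had 41.8. Zfp330 had 204 and 262 normalised counts in the controls and 291 and 283 after LPS, with a log2 difference of 0.29 (SE 0.199) and an edgeR adjusted p of 0.594. Zfp706 had 414 and 400 against 466 and 474. In both genes, and in Zfp622 and Zfp830, both LPS libraries were above both controls, as in 21.4% of all 6981 tested records. In Zfp64 both were below, as in 21.9%. None of the 5 passed the test. Zfp64 had 108 and 107 against 95.2 and 96.8, with an edgeR adjusted p of 0.856. Zfp622 had 135 and 122 against 157 and 136, and Zfp830 had 66.1 and 61.6 against 75.8 and 72.4. Their adjusted p-values were 0.809 and 0.817.

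Of 13 listed genes of ubiquitin, RNA or ribosome biology 12 were tested, and 1 fell, Zfp385a, beside 1.7% of all tested records lower and 3.82% higher. Without control replicate 1 the log2 fold changes of Zfp91, Zfp330 and Zfp638 were -0.80, 0.14 and -0.17. Without control replicate 2 they were -0.19, 0.49 and 1.33. Zfp598, the ubiquitin ligase that marks collided ribosomes, had 135 and 118 normalised counts in the controls and 138 and 129 after LPS (log2 fold change 0.08, SE 0.212). Zfp346, a double-stranded RNA-binding protein gene, had a log2 fold change of 0.02 (SE 0.229), Zfp593, a ribosome assembly factor gene, -0.18 (SE 0.338), and Zfp106, an RNA-binding protein gene, -0.17 (SE 0.181). Zfp91, a ubiquitin ligase gene linked to non-canonical NF-kB signalling, had 50.6 and 78.5 against 49.9 and 39.1 (log2 fold change -0.56, SE 0.294, adjusted p 0.424). Zfp638, which silences unintegrated retroviral DNA, had 19.7 and 56.5 in the controls and 48.1 and 51.8 after LPS (log2 fold change 0.30). Zfp207 and Zfp277 had mean levels of 9.26 and 15.7 normalised counts and log2 fold changes of -0.38 (SE 0.685) and -0.21 (SE 0.539). These are values of the best of 5 and 2 records, and Zfp638 also has 2, so the level of each whole gene is uncertain.

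Of 14 listed promoter and enhancer factors 7 were tested, and none passed in edgeR, DESeq2 or limma-voom, while 1, Zfp263, had an unadjusted p below 0.05. Over all tested records 5.53% passed in edgeR and 15.4% had an unadjusted p below 0.05. Without control replicate 1 the log2 fold changes of Zfp263, Zfp148, Zfp292 and Zfp687 were 0.72, -0.54, -0.82 and -0.17. Without control replicate 2 they were 1.09, 0.24, 0.88 and -0.80. Zfp148, a GC-box factor, had 134 and 232 normalised counts in the controls and 171 and 146 after LPS (log2 fold change -0.23, SE 0.262). Both LPS values lay between the controls. Zfp335, a chromatin-bound regulator needed in neural progenitors, had 208 and 158 against 188 and 181 (log2 fold change 0.02). Zfp24 had a log2 fold change of -0.21 (SE 0.303) and Zfp292 -0.30 (SE 0.465). Zfp687 and Zfp592, whose proteins occur in a complex with ZMYND8, had -0.49 and -0.38, with adjusted p-values of 0.554 and 0.747. Zfp445, a KRAB gene that guards imprints, was the tested gene of the silencing list, with 45.0 and 149 normalised counts in the controls and 95.2 and 127 after LPS (log2 fold change 0.14, SE 0.404, adjusted p 0.95). Again the LPS values lay between those of the controls.

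The gap between the controls was wider in genes matching the KRAB pattern, as a description. The transcripts of all 165 KRAB-matching genes, tested or not, had a median GC content of 41.1%, against 48.8% for all 209 non-matching ones. The median control ratio was 0.91 on the log2 scale over 55 tested KRAB-matching genes and 0.08 over 91 non-matching ones. The normalised counts of all 165 KRAB-matching genes summed to 1338 and 2379 in the controls and to 1666 and 1871 after LPS. Those of the 209 non-matching genes summed to 5017 and 5758 against 5280 and 5382. In both classes the LPS sums lay between the control sums. The median log2 fold change after LPS was -0.18 over the tested KRAB-matching genes and -0.03 over the others, beside -0.01 over all records. For the KRAB-matching genes it was -0.49 without control replicate 1 and 0.42 without control replicate 2, and for the others -0.07 and 0.12. After removal of a trend on GC content and length, the medians were -0.29 for KRAB-matching genes and -0.01 for the others, beside -0.05 over all records. The part of GC content in the difference between the controls was not tested.

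The 45 genes of chromosome 17 summed to 527 and 868 normalised counts in the controls and 643 and 729 after LPS, and the 38 of chromosome 13 to 402 and 721 against 471 and 563. The 89 genes of chromosome 7 summed to 1066 and 1097 against 1081 and 1031. Over all 382 genes the sums were 6363 and 8149 in the controls and 6949 and 7260 after LPS. The log2 ratio of the group means was -0.03, with an exact two-sided permutation p of 1, where the smallest p that 2 against 2 libraries can give is 0.333.

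The median direction of the family turned on which control library was used. The median log2 fold change of the tested Zfp genes was -0.12, beside -0.01 for all tested records. Without control replicate 1 it was -0.35, with 4 genes higher and 16 lower, where 8.51% and 6.65% of all records were called. Without control replicate 2 it was 0.17, with 17 higher and 7 lower, where 10.1% and 8.09% were called. The genes called lower without control replicate 1 included Zfp148, Zfp91, Zfp292, Zfp367, Zfp518a and Zfp704, and those called higher without control replicate 2 included Zfp26, Zfp35, Zfp260, Zfp330, Zfp445 and Zfp638. Zfp930 was called lower in the first and higher in the second. In these fits the remaining control library is assumed to vary like the LPS libraries, and it has no replicate. Zfp445 rose by 1.29 without control replicate 2 (adjusted p 5.2e-05 in edgeR), whereas its log2 fold change without control replicate 1 was -0.42 (adjusted p 0.116). Zfp719, Zfp385a and Zfp395 were called with either control library alone. Without LPS replicate 1 there was 1 gene higher and 2 lower, where 2.51% and 0.703% of all records were called, and without LPS replicate 2 there were 0 higher and 2 lower, where 2.28% and 0.539% were. With no filter on low counts 297 Zfp genes were tested and 3 were higher and 3 lower, beside 2.79% and 1.6%. With the trend on GC content and length removed 3 were higher (Zfp719, Zfp263 and Zfp658) and 2 lower, beside 6.17% and 4.8%.

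**Figure D5:**
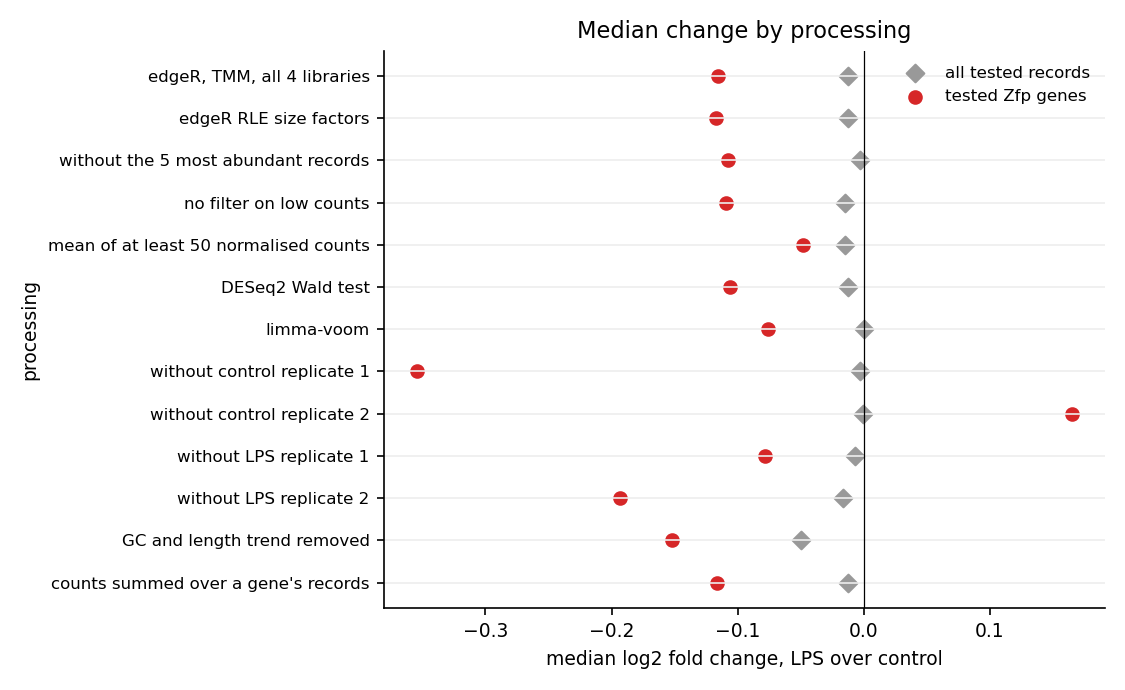
Median log2 fold change after LPS (x axis) over the tested Zfp genes (red) and over all tested records (grey diamonds) under each processing (y axis). The Zfp median runs from -0.35 without control replicate 1 to 0.17 without control replicate 2, while the median of all records stays near 0.

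Genes of the machinery that KRAB proteins recruit gave no call with all 4 libraries. Of 30 listed corepressor genes 18 were tested, and none passed in edgeR, DESeq2 or limma-voom, while 2 had an unadjusted p below 0.05, beside 5.53% of all tested records called in edgeR and 15.4% at an unadjusted p below 0.05. This turned on the control libraries. Without control replicate 2, 4 were called higher and 3 lower, beside 10.1% and 8.09% of all records, and without control replicate 1, 0 were called higher and 2 lower, beside 8.51% and 6.65%. With all libraries their median log2 fold change was -0.09, beside -0.01 for all tested records. Mta2, a NuRD subunit gene, had 850 and 792 normalised counts in the controls and 961 and 873 after LPS (log2 fold change 0.16, SE 0.174). Rbbp7 and Rbbp4, histone-binding subunit genes, had log2 fold changes of 0.13 (SE 0.184) and -0.07 (SE 0.183). Trim28, the KRAB corepressor itself, had 489 in control replicate 1, 319 in control replicate 2, and 326 and 317 after LPS (log2 fold change -0.32, SE 0.221, adjusted p 0.602 in edgeR). Control replicate 1 was the high library there, and the Trim28 transcript has a GC content of 59.6%. Rbbp4 was also higher in control replicate 1, with 716 against 601 in control replicate 2, at a GC content of 43.8%. The part of GC content in these gaps was not tested. Atf7ip, a partner of SETDB1, had 15.5 and 16.0 against 6.47 and 6.85 (log2 fold change -1.23, SE 0.453, adjusted p 0.196), and Chd3 had -0.47 (adjusted p 0.301).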

How the data were processed

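RNA was measured in 4 BV-2 libraries, 2 per group, grouped and numbered by their titles. The authors deposited 1 table of whole-number read counts for 32915 RefSeq records. Although the table's name calls it normalised, column totals differ between libraries and the values were taken as raw. Per the submitters' processing notes, HTSeq 0.6.1, TopHat2 2.0.10 and Cufflinks 2.2.1 were used, with Trimmomatic 0.33, CASAVA 1.8.2 and build mm10. Neither the strand setting nor the treatment of shared reads is stated in those sources. Libraries were directional, randomly primed and depleted of ribosomal RNA, per the labels' protocols.

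RefSeq tables of GRCm38.p6, the assembly of mm10, gave symbols to 32487 records and the positions printed. GENCODE transcripts gave length and GC content for 380 of the 382 genes. Records were kept by edgeR's filterByExpr (minimum count 10, 6981 records), scaled by TMM and tested with the quasi-likelihood method of edgeR 4.0.16 in R 4.3.3 on the whole table with Benjamini-Hochberg adjustment at 0.05. Each SE given is the absolute log2 fold change divided by the square root of the quasi-likelihood F statistic. Each normalised count is a count scaled from its library's effective size to the mean of those sizes. Ratios between libraries used a pseudocount of 0.5. The procedure was also run on simulated counts. These were drawn with the same spread setting for all records and no gap between the controls tied to GC content. Replicates were not copies of 1 library: chi-square over its degrees of freedom was 6.50 for the controls and 1.77 after LPS.

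A finger was scored as cysteine, 2 to 4 residues, cysteine, 12 residues, histidine, 3 to 5 residues, histidine. Genes were named by a rule that takes the called genes, the 8 next by adjusted p, the 5 highest per 1000 bases, and tested genes of 36 listed by known role. The members and lists were chosen with earlier results of these data known. Alternatives were other size factors, filters, tests (DESeq2 1.42.0, limma-voom 3.58.1), a replicate block, removal of a GC and length trend, counts summed over records, and leaving out each library. Counts carry no molecular identifiers.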

Additional observations from a re-analysis of the deposited data

How the results depend on the processing

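Zfp385a and Zfp395 kept their direction and call in every alternative that tested them, with log2 fold changes of -1.99 to -1.46 and -2.92 to -2.31. Zfp719 kept its direction in all, and its call in all but the fit without LPS replicate 2. The number of Zfp genes higher was 3 with no filter on low counts, 3 with the GC and length trend removed and 0 to 17 when a library was left out. The number lower was 0 among genes averaging 50 or more normalised counts, where neither called gene was tested, and 2 to 16 when a library was left out. The labels' replicate numbers do not say what pairs the samples, and the replicate differences of the groups had a correlation of 0.242 across genes. With the replicate number as a block, 3 genes were higher and 3 lower, beside 5.74% and 4.13% of all records, and with the block and the trend removed together 7 were higher and 3 lower, beside 7.92% and 7.78%. Leaving out a library moved the median of the Zfp genes from -0.35 to 0.17 and the log2 ratio of their summed level from -0.20 to 0.16, with 0.00086 without LPS replicate 1. Corepressor genes higher ran from 0 to 4 and lower from 0 to 3 when a library was left out, both largest without control replicate 2, where 10.1% and 8.09% of all records were called, with 1 lower under the trend and block together. Over all records 386 were called, against 574 with no filter, 689 with the block, 1096 with trend and block, 1122 and 1304 without control replicates 1 and 2, and 233 and 204 without LPS replicates 1 and 2. Removal of the trend gave 431 higher and 335 lower, against 267 and 119.

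Genes near 0 changed sign when a library was left out, with ranges of -0.54 to 0.24 for Zfp148, -1.21 to 1.56 for Zfp207, -0.475 to 0.23 for Zfp24, -1.36 to 0.47 for Zfp277, -0.82 to 0.88 for Zfp292, -0.18 to 0.23 for Zfp335, -0.0615 to 0.10 for Zfp346, -0.42 to 1.29 for Zfp445, -0.0211 to 0.18 for Zfp598, -0.17 to 1.33 for Zfp638, -0.20 to 0.0685 for Rbbp4 and -0.0072 to 0.30 for Rbbp7. Among genes averaging 50 or more, Zfp335 had -0.0084 and Zfp346 -0.0114. With the trend removed Rbbp7 had -0.0626, and -0.0633 with the block too. The cause was not tested. Tested Zfp genes had a median of 28.0 normalised counts, against 66.6 for all tested records; the part of depth in the calls was not tested.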
